A study of Drosophila melanogaster with 2 samples.

Results

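A list of 9 genes of epithelial polarity and of tracheal development was followed through a map of Hmx-eGFP on embryonic chromatin. The genes were named and not chosen from a measured cutoff, although earlier results of these data were known when the list was made. In dm6, the genome build of the region lists, all 9 were found by symbol among 13945 protein-coding genes on the chromosome arms. The genes are baz, crb, dlg1, scrib, l(2)gl, shg, rib, trh and btl. A gene was taken to hold a region when the summit of the region, the base where its signal peaked, lay in the annotated gene body or in the 1 kb upstream. By that rule 7 of the 9 genes held a summit of the final region set, with 1 summit each, and l(2)gl and btl held none. Of all protein-coding genes 12.2% held such a summit. In the 2 longest of 10 length classes, where the 9 genes fell, 19.3% and 27.0% did.

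Chromatin immunoprecipitation and sequencing (ChIP-seq) had been done on intact fruit fly embryos (Drosophila melanogaster), males and females together, aged 0 to 24 h, in 2 biological replicates that the labels number 2 and 3. These formed 1 group, with no other genotype or treatment. All embryos were of strain Hmx-MiMIC-GFP, in which an eGFP exon placed in an intron of Hmx makes the gene encode a tagged homeodomain protein. The precipitating antibody was against GFP by the sample description, while the antibody field reads Hmx. Whole embryos mix all tissues, so a region bound strongly in few cells and one bound weakly in many cannot be told apart, and no epithelial or tracheal cells were isolated.

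The deposited lists held no read counts, so depth is unknown. The regions had been called against a control alignment, which was not itself analysed here. There were 30000 regions for each replicate and 30000 for the replicates pooled, and each of these lists held weaker regions that may be background. The final set, which passed the irreproducible discovery rate (IDR) procedure, held the 1607 strongest pooled regions, 1595 of them on the arms. Each region carries a signal on the scale of the authors' region caller. It was used to rank regions within a list, from 1 for the strongest. On the arms the IDR signals ran from 78.41 to 1041, with a median of 110.5.

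Epithelial cells keep an apical and a basolateral membrane apart. The Par and Crumbs proteins mark the apical side, the Scribble, Discs large and Lethal giant larvae proteins mark the basolateral side, and each group restrains the other. DE-cadherin holds neighbouring cells together at adherens junctions. In the fly embryo the tracheal network grows from epithelial placodes, where Trachealess sets tracheal fate and the FGF receptor Breathless guides branching.

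The summits at 4 genes are shown here as the summit base with 50 bp on each side, because they are the places within crb, dlg1, scrib and trh at which Hmx-eGFP signal peaked. The bases are from the RefSeq copy of the Release 6 assembly, which has dm6 coordinates, on the plus strand. Capitals mark matches, on either strand, to 7 motifs searched. Among the motifs with known binding proteins, TAATTA is the general site of homeodomain proteins in many animals, and a close variant of this homeodomain site, TAATTG, was searched as well. Proteins of the NK homeodomain class bind sites such as TAAGTG, and a second known site of that same protein class is CAAGTG. The sequence GAGAGA is bound by the chromatin protein GAGA factor, while the early embryonic activator Zelda binds CAGGTA, and the promoter element called DRE, found near many housekeeping genes, is TATCGATA. The windows are chr3R:24296016-24296116 for crb, chrX:11390995-11391095 for dlg1, chr3R:26557729-26557829 for scrib and chr3L:377720-377820 for trh.
crb: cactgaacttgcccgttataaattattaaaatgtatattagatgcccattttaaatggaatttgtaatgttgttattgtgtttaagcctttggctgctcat
dlg1: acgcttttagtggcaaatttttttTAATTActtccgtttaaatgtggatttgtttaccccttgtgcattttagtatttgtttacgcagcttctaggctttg
scrib: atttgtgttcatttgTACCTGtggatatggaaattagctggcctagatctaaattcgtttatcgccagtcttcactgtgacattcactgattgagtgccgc
trh: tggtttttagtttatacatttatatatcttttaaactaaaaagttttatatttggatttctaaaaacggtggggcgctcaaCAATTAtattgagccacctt

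The dlg1 window held TAATTA, with its leftmost base on the plus strand at position -26 from the summit base, and the trh window held TAATTG on the minus strand, with its leftmost base at position 31. TAATTA was in 11.2% and TAATTG in 12.2% of the 1595 windows of the same length at IDR summits on the arms. The scrib window held CAGGTA on the minus strand at position -35, a motif in 1.88% of windows. The window at the baz summit, which overlaps an annotated 5′ UTR and is not printed, held GAGAGA on the minus strand at position 45, a motif in 3.2% of windows. The crb window held none of the 7 motifs. TAAGTG (5.45% of windows), CAAGTG (4.01%) and TATCGATA (1.25%) were in none of these 5 windows, and matches at the shg and rib summits are not reported here. TAATTA and TAATTG share their first 5 letters and TAAGTG and CAAGTG their last 5, and none of the motifs contains another. A match is only a run of letters in the window.

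The 9 genes were counted against all protein-coding genes and against genes of the same length class, since a long gene offers more room for a summit. Of the 9, 7 held an IDR summit, a share of 77.8%. The background was 12.2% of protein-coding genes, with a 95% Wilson interval of 11.7 to 12.7%. By the length of body and upstream window, baz, crb, dlg1, scrib and trh fell in the longest of 10 equal classes of protein-coding genes, in which 27.0% held a summit, and all 5 did. That class spans windows of 15.6 to 1970 kb, so it matches length only roughly. The windows of these 5 genes ran from 20.5 kb at crb to 68.7 kb at scrib. The other 4 genes fell in the next class, in which 19.3% held a summit, and shg and rib did while l(2)gl and btl did not. No test was made on the list, because its genes were chosen with results of these data known.

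**Figure D1:**
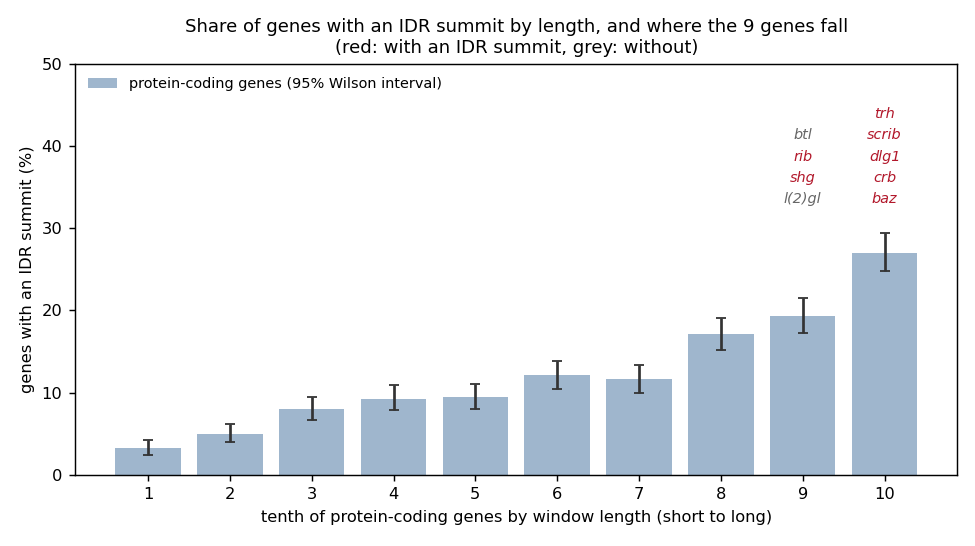
The share of protein-coding genes with an IDR summit (y axis, %) is shown for 10 classes of genes ordered by window length (x axis), with 95% Wilson intervals as error bars and the names of the 9 genes above the class each falls in, red with a summit and grey without. The share is 3.23% in the shortest class and 27.0% in the longest, and the 9 genes sit in the 2 longest classes.

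Among apical genes, baz held the strongest region of the list. It encodes Bazooka, the scaffold that assembles the Par complex with Par-6 and the kinase aPKC. The gene lies at chrX:17160006-17200728 on the plus strand, and its IDR region at chrX:17178538-17178973 had a pooled signal of 185.9 and rank 271. The summit stood at rank 216 in replicate 2, with a signal of 114.8, and at rank 435 in replicate 3, with a signal of 69.98. Both replicates thus placed it well inside their strongest 1607 regions, and the replicate summits lay 37 and 4 bp from the pooled one. The pooled signal was 1.68 times the median of IDR regions on the arms, and 83.8% of those regions were weaker.

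The baz summit was far from any promoter of the gene. It lay 18750 bp downstream of the nearest baz start, in a 3.62 kb exon of 5′ UTR used by 2 of the 4 transcripts, and in a first intron of 27.8 kb in the other 2. The nearest start of any gene belonged to lncRNA:CR44026, at 4486 bp. Regions at pooled ranks 1832 and 2652, with signals of 73.23 and 61.65, formed the next strongest places in baz, 16748 and 15866 bp downstream of the start. They had q values of 0.956% and 2.92% and lie outside the IDR set. The stronger of them had rank 2172 in replicate 2 and 2265 in replicate 3, and the weaker had rank 3185 in replicate 2 and 2984 in replicate 3. A further region lay 415 bp downstream of the baz start, at rank 3766.

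The second apical gene, crb, encodes Crumbs, the transmembrane determinant of the apical membrane. It lies at chr3R:24295078-24314541 on the plus strand. Its IDR region at chr3R:24295848-24296283 had a pooled signal of 86.45 and rank 1299, and its summit lay 988 bp downstream of the start, in a first intron of 9.34 kb that all 4 transcripts share. The replicate 2 region had a signal of 45.43 and rank 1490, and the replicate 3 region had a signal of 39.31 and rank 1629. The 2 replicates were close in rank, with replicate 3 just outside its strongest 1607. The next region of crb was 5118 bp from the start at rank 4727, with a q value of 13.5%.

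Of 3 basolateral genes, 2 held an IDR summit, where the shares of their length classes averaged 24.4%. The gene dlg1 encodes Discs large, a membrane-associated scaffold of the septate junction region, and lies at chrX:11369665-11409776 on the plus strand. Its IDR region at chrX:11390827-11391262 had a pooled signal of 101.8 and rank 955. The replicate 2 region stood at rank 1081 with a signal of 53.24, and its summit was 2 bp from the pooled summit. In replicate 3 there were 2 summits within 250 bp, the nearer 72 bp away at rank 1831 and the stronger 138 bp away at rank 906, with a signal of 49.93. The place was intronic in all 16 transcripts that span it, of 21, and 673 bp downstream of an internal start. A second dlg1 region at rank 2426, with a signal of 64.38 and a q value of 2.21%, lay 547 bp upstream of another internal start.

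The gene scrib, for the Scribble scaffold, held a summit at the edge of the set. It lies at chr3R:26536350-26604051 on the plus strand and is the longest of the 9, at 67.7 kb. Its IDR region at chr3R:26557561-26557996 had a pooled signal of 78.68 and rank 1593, with 14 weaker regions left in the set. Replicate 2 gave rank 1281 and a signal of 48.64, whereas replicate 3 gave rank 2356, a signal of 34.11 and a q value of 7.49%. The summit was in an intron of 10.1 kb, 10834 bp upstream of the nearest start of scrib. A further region 643 bp downstream of the start at the 5′ end of scrib ranked 3022 in the pooled list and 1340 in replicate 2, but replicate 3 had no summit within 250 bp of it.

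No IDR summit was at l(2)gl, which encodes Lethal giant larvae, a cytoskeletal protein that aPKC phosphorylates. The gene lies at chr2L:9839-21376 on the minus strand. Its strongest pooled region, in an intron at chr2L:12958-13393, had a signal of 55.01, rank 3519 and a q value of 7.18%. In replicate 2 there were 2 summits within 250 bp, the nearer 5 bp away at rank 3732 and the stronger 218 bp away at rank 3136. Replicate 3 had a summit 80 bp away at rank 12473. The replicates did not put their strongest l(2)gl region at the same place. In replicate 2 it lay in the 3′ UTR at chr2L:9785-10224, with a signal of 37.85, rank 2192 and a q value of 0.707%, and replicate 3 had no summit within 250 bp. In replicate 3 it lay at chr2L:15561-15990, with a signal of 24.3 and rank 6878.

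The adherens junction gene shg encodes DE-cadherin and was the only one of the 7 genes whose summit lay outside the gene body. It lies at chr2R:21049654-21057197 on the minus strand and has 1 annotated transcript. Its IDR region at chr2R:21057167-21057602 had a pooled signal of 83.48 and rank 1396, with the summit 188 bp upstream of the start. The same summit lay 402 bp from the start of the divergent neighbour cpa, which encodes a subunit of actin capping protein, so the region cannot be given to one of the 2 genes. Replicate 3 placed it at rank 1230, with a signal of 43.89, and replicate 2 at rank 2157, with a signal of 38.16. Only replicate 3 held it among its strongest 1607, while both had a q value below 5%, at 0.854% in replicate 3 and 0.719% in replicate 2.

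Of the tracheal genes, rib held the second strongest region of the 9 genes. It encodes Ribbon, a BTB-domain nuclear factor needed for the shaping of tracheal and salivary tubes, and lies at chr2R:19270078-19281396 on the plus strand. Its IDR region at chr2R:19272085-19272520 had a pooled signal of 123.4 and rank 642. Replicate 3 gave a signal of 76.07 and rank 346, and replicate 2 a signal of 42.09 and rank 1742, so only replicate 3 held it among its strongest 1607. The summit was 2225 bp downstream of the start at the 5′ end of the gene, in a first intron of 7.08 kb, and 1 of 3 transcripts spans it. The next region of rib, 476 bp downstream of an internal start, had pooled rank 3359, with rank 1981 in replicate 3 and 16189 in replicate 2.

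The gene trh, for the bHLH-PAS factor Trachealess, lies at chr3L:366524-392633 on the minus strand. Its IDR region at chr3L:377552-377987 had a pooled signal of 84.03 and rank 1376. Replicate 2 had its summit at the same base, with a signal of 52.98 and rank 1091. Replicate 3 had a summit 89 bp away with a signal of 31.51, rank 2973 and a q value of 12.7%, outside its strongest 1607. The summit was 454 bp upstream of an internal trh start and 14863 bp from the 5′ end of the gene, in an intron of the 2 transcripts that span it, of 7. The next trh region was far weaker, at rank 10889.

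The gene btl encodes Breathless, the FGF receptor of tracheal cells, and held no IDR summit. It lies at chr3L:14075772-14083229 on the plus strand and had 2 regions in the pooled list. The stronger, in an intron at chr3L:14078391-14078826, had a signal of 47.55, rank 5123 and a q value of 15.7%. Its counterpart had rank 9375 in replicate 2, with a signal of 20.91, and rank 4326 in replicate 3, with a signal of 28.0. No region at btl had a q value of 5% or less in the pooled list or in either replicate, the lowest being 15.7%.

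**Figure D2:**
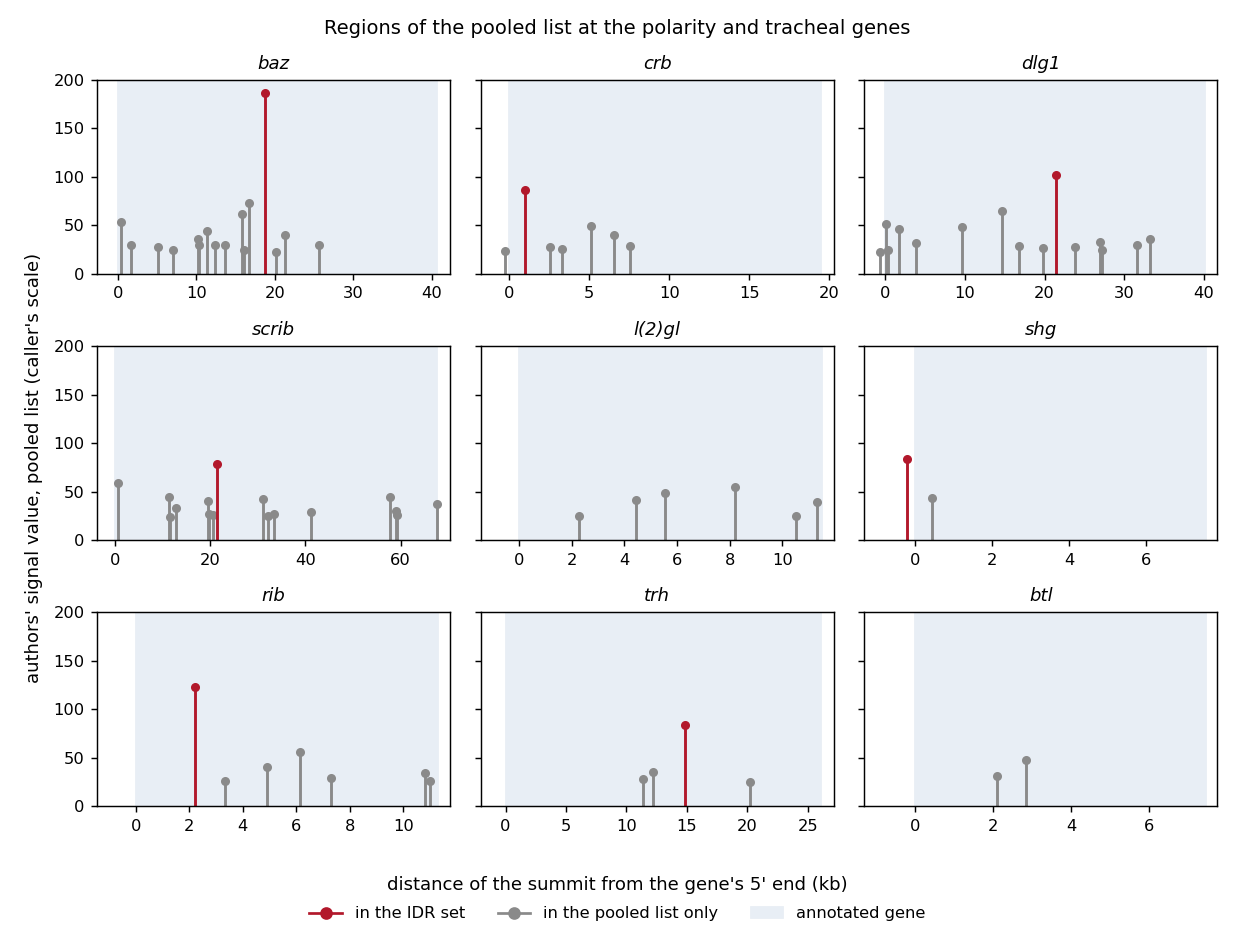
Each panel plots the regions of the pooled list at 1 gene, with the distance of the summit from the 5′ end of the gene on the x axis (kb) and the authors' signal value on the y axis (caller's scale). Red marks regions in the IDR set and grey the others, and the shaded span is the annotated gene. The baz region at 185.9 is the tallest, and l(2)gl and btl have grey regions only.

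The lists also held weaker regions along these genes. The pooled list had 75 summits at the 9 genes, from 2 each at shg and btl to 16 each at baz and scrib. Per kb of window this was 0.148 at trh, the lowest, and 0.568 at rib, the highest. Genes of the longest class together had 0.247 summits per kb and those of the next class 0.297. At a q value of 5% or less, 11 pooled regions lay at the same 7 genes, 3 of them at baz, 2 at dlg1, 2 at scrib and 1 at each of the rest. By that rule 7 of 9 genes held a region, against 19.6% of protein-coding genes. That background was not matched for length, and the 9 genes fall in the 2 longest classes.

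The replicates ordered the genes differently. Every one of the 7 IDR summits had a summit of both replicates within 250 bp, as had 97.0% of IDR summits on the arms. The IDR set was made from both lists, so this is partly built in. Taken alone, the 1607 strongest regions of replicate 2 put a summit at 5 of the 9 genes (baz, crb, dlg1, scrib and trh), against 12.6% of protein-coding genes. Those of replicate 3 put one at 4 genes (baz, dlg1, shg and rib), against 11.8%. Neither background was matched for gene length. Only the baz and dlg1 summits were among the strongest regions of both replicates, 2 of 7, against 65.5% of IDR summits on the arms (95% Wilson interval 63.1 to 67.7%). That background covers summits of every strength and was not matched for signal, and only 2 of the 7 were above the median of the arms. For dlg1 in replicate 3 the place rests on a summit 138 bp away at rank 906. The nearer summit, 72 bp away, had rank 1831. With 2 replicates no spread can be tested for any 1 gene.

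**Figure D3:**
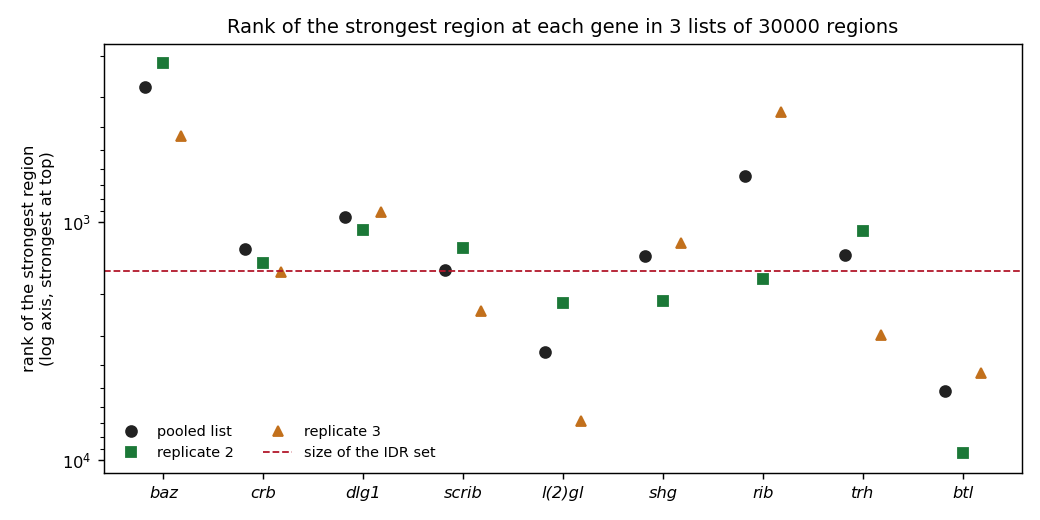
The rank of the strongest region at each gene is given for the pooled list and for each replicate, on a log axis with the strongest at the top, and the dashed line marks the size of the IDR set, 1607. For baz and dlg1 all 3 points lie above the line, and for l(2)gl and btl all 3 lie below it.

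Most of the 7 summits were weak for the set and lay farther than 500 bp from a start, although 4 of the 7 lay within 1 kb of one. Signals ran from 78.68 to 185.9 with a median of 86.45, and baz and rib were the only 2 above the median of 110.5 for the arms. Within 500 bp of any annotated start lay 2 of the 7, those of shg and trh, against 60.1% of IDR summits on the arms (95% Wilson interval 57.6 to 62.4%). That background was not matched for gene length, and the rule that gave the 7 admits any place in a gene body. On the arms, summits farther than 500 bp from a start had a median signal of 103.7 and those within it 116.8. At the 7 genes, the 2 summits within 500 bp had signals of 83.48 and 84.03, and the others ran from 78.68 to 185.9. Apart from the summit upstream of shg, all 6 lay in the body of the gene, and none lay in a coding exon.

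The G+C content of the summit base with 50 bp on each side ran from 24.8% at rib to 41.6% at scrib. It was 27.7% at trh, 28.7% at shg, 30.7% at crb, 33.7% at dlg1 and 35.6% at baz. Over all IDR summits on the arms the median was 29.7%, with quartiles of 26.7% and 34.7%, and the arms as a whole had 42.2%. The scrib window was thus close to the genome as a whole, and 90.2% of IDR windows had a lower content, whereas rib had a lower content than the first quartile.

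**Figure D4:**
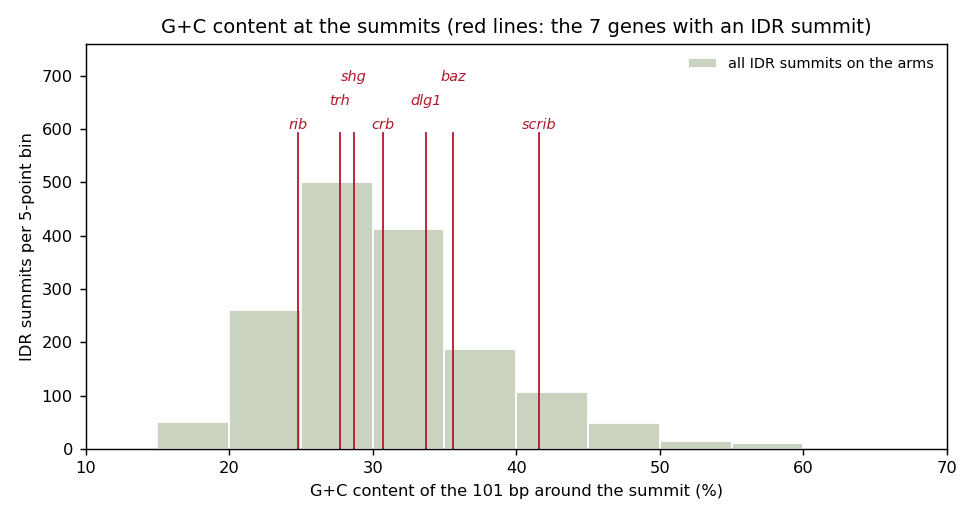
The histogram gives the number of IDR summits on the arms (y axis) by the G+C content within 50 bp of the summit (x axis, %), and the red lines mark the 7 genes with an IDR summit. They run from 24.8% at rib to 41.6% at scrib, around a median of 29.7% for all summits.

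A further 53 genes of the same pathways were counted from 7 lists. Of these, 8 held an IDR summit, or 15.1%, against 12.2% of all protein-coding genes. These genes are long as well, with 20 in the longest class and 13 in the next, and the shares of their own length classes averaged 19.6%. Nothing particular to these lists is read from the counts. Apical polarity had 2 of 7, or 28.6%, where the shares of their length classes averaged 16.3%. These were par-6, which encodes the Par-6 adaptor, and aPKC, for the kinase of the Par complex. The par-6 region, chrX:17702732-17703167, had a pooled signal of 122.1, rank 446 in replicate 3 and rank 1153 in replicate 2. Its summit was 402 bp upstream of par-6 but 74 bp from the start of CG8188. The aPKC region, at chr2R:14954577-14955012 in an intron, had a signal of 88.36, with rank 1436 in replicate 2 and 1463 in replicate 3. The apical genes sdt, Patj, Cdc42, yrt and veli held none.

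Of 5 other basolateral genes, 14-3-3epsilon, which encodes a protein that binds phosphorylated partners, held a summit 275 bp upstream, with a signal of 82.62. The start of CG7156 was nearer, at 97 bp. This was 20.0% of the 5 genes, where the shares of their length classes averaged 20.8%. Of 7 other adherens junction genes, cno, which encodes the Afadin homologue Canoe, and pyd, for the ZO-1 homologue Polychaetoid, held summits. These 2 were 28.6% of the list, where the shares of the length classes averaged 23.4%. The cno region had a signal of 90.38, with rank 682 in replicate 3 and 3720 in replicate 2. The 2 regions of pyd had signals of 89.3 and 82.6, and the stronger was 242 bp upstream of a start, with rank 831 in replicate 2 and 3828 in replicate 3. The genes arm and alpha-Cat, for the catenins that bind DE-cadherin, held none.

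Among 12 septate junction genes, 2 held a summit, or 16.7%, where the shares of their length classes averaged 17.7%. Atpalpha, the sodium pump alpha subunit gene, had a signal of 124.3 and rank 619 in replicate 2 and 709 in replicate 3, and lay 299 bp upstream of an internal start. The summit at vari, which encodes a membrane-associated scaffold, had a signal of 86.31 and was 400 bp upstream of vari and 273 bp from the start of CG9328. Of 4 other FGF pathway genes only pnt, an ETS factor gene, held a summit, in an intron with a signal of 91.46, and bnl, which encodes the FGF ligand of Breathless, held none. The shares of the length classes of these 4 genes averaged 27.0%. None of the 8 other tracheal transcription factor genes and none of the 10 tube and lumen genes held an IDR summit. The shares of their length classes averaged 17.9% for the transcription factor genes and 19.6% for the tube and lumen genes, and with so few genes these counts do not show that the groups stand apart. Of the transcription factor genes, tgo, which encodes the partner of Trachealess, had its strongest pooled region at rank 5772.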

How the data were processed

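Region lists from 2 replicates of 1 group were used, in which the authors deposited a signal value on the region caller's scale and a −log10 q value for each region. Per the file records, each list was called on dm6 against 1 control alignment, the pooled list used both replicates, and the IDR set was derived from these lists. Which caller and aligner made them, and at what IDR threshold, is not stated in the sources. Lists made on dm3 were not used here. Summits were placed on the BDGP6.54 annotation of Ensembl release 115, leaving out transposable elements. All regions fitted within the RefSeq arms. Ranks run by signal, and ties take the best rank. Replicate support is the strongest region with its summit within 250 bp. Shares have 95% Wilson intervals (scipy 1.17.1), which cover counting error only. With 1 group, no test between conditions was possible and none was made on the list.

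The members, lists and motifs were chosen with earlier results of these data known. All 9 genes were named, with the genes sharing a summit or holding the nearest start, and the genes of the 7 further lists that held an IDR summit. A few genes without one were named after their values were seen. The gene dumpy, first listed under an older symbol, was matched by hand to dpy. Gene assignment was checked on planted positions. Alternatives covered the window, the region list, the replicate and the support distance. Reporting the strongest nearby replicate region, and withholding a sequence that overlaps a UTR, were choices made after seeing the data.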

Additional observations from a re-analysis of the deposited data

How the results depend on the processing

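Each count was repeated under other settings. The 7 genes with an IDR summit became 4 with summits within 1 kb of a start of the gene (crb, dlg1, shg and trh, 5 of the further genes) and 2 when the weaker IDR regions, below the median signal, were dropped (baz and rib, 2 further genes). The number of IDR summits at the 9 genes, also 7, became 4 and 2 in those settings and 11 at a pooled q value of 5% or less, where 21 further genes in place of 8 held a region. With 1 replicate left out, 4 to 5 genes and 4 to 6 summits were found, the 4 without replicate 2 (crb, scrib and trh lost) and the 5 without replicate 3 (shg and rib lost). In the other settings 6 or 7 genes held a summit, and baz was lost when each summit went to the nearest start of any gene. The 8 further genes became 5 with the gene body only, 4 with the nearest start of any gene and 5 with the nearest protein-coding start, a setting chosen after seeing the data. The background of 12.2% of protein-coding genes was 5.33% with the body only, 13.6% with 2 kb upstream, 10.4% within 1 kb of a start, 8.94% and 9.73% with the nearest start of any and of protein-coding genes, 12.9% with any overlap of 1 bp, 6.71% without the weaker IDR regions and 19.6% at a pooled q of 5% or less. The 7 summits supported by both replicates became 2 among the strongest regions of each (baz and dlg1) and 2 without the weaker IDR regions. The 2 summits near a start became 1 within 250 bp, 4 within 1 kb and 0 without the weaker IDR regions. The cause of these changes was not tested. Depth is unknown, so weak regions such as those at l(2)gl and btl do not show absence of binding. No paired analysis was possible because there is only 1 group.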
